A study of Mus musculus with 2 samples.

Results

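The cytosolic ribosomal proteins are the protein components of the ribosome that translates nuclear-encoded messages. Members were all probe sets that the platform annotation assigns to exactly 1 gene with a symbol of the form Rpl or Rps plus a number, Rplp0 to Rplp2, or Rpsa. Pseudogenes and the S6 kinases were left out. This gave 48 of 12488 probe sets and 34 of 8251 named genes, with 17 genes of the large subunit (22 probe sets) and 17 of the small subunit (26 probe sets). RNA came from mouse 3T3 cells, fibroblasts of embryonic origin that grow without limit in culture, kept in serum-free DMEM. In the suspension group the cells were cultured unattached, and in the fibronectin group they were plated on 10 µg/ml fibronectin, an adhesive matrix glycoprotein, for 30 min. The labels name no further treatment and no genotype. Each group was 1 Affymetrix MG_U74Av2 array, although the series text speaks of 2 replicates. The differences below therefore have no replicate check and no test, and they compare 1 array with 1 array, not the conditions.

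The mammalian ribosome has a small subunit, which reads the message, and a large subunit, which joins the amino acids. Each ribosomal protein is in general present in 1 copy per ribosome, and the proteins of the acidic stalk are the exception. The messages of these genes are among the most abundant of growing cells. They carry a tract of pyrimidines at their 5′ end, the TOP sequence, through which mTOR signalling controls how well they are translated. As the arrays measure RNA and not its translation, this control is not seen in the values below.

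Signals were on the linear scale of the deposited table after each array was scaled to a common 2% trimmed mean. A common floor of 490, the mean of both arrays' 40th percentiles, was set before log2 was taken, and a gene was measured if at least 1 array reached it. The log2 ratio is fibronectin minus suspension. Where only 1 array reached the floor, the fold is a lower bound and is written with "at least". The highest of 34 negative control probe sets (antisense, bacterial and yeast sequences) reached 1452 in the suspension array and 2527 in the fibronectin array. A gene above the highest control of each array in both arrays is called clearly detected. Signals of different probe sets depend on their probes and are not compared as levels of the genes. In bulk RNA, fewer cells that express a gene and less RNA of it per cell cannot be told apart.

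Of the 34 genes, 27 were at or above the floor in both arrays, 3 in 1 array and 4 in neither, so that 30 were measured. Clearly detected were 21 genes, 11 of the large and 10 of the small subunit. Among all probe sets of the arrays, 15 of the 34 genes lay in the top 1% of signals in both arrays and 19 in the top 10%. Of the 15 others, Rps27 and Rpl22 were clearly detected and 13 were not.

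**Figure D1:**
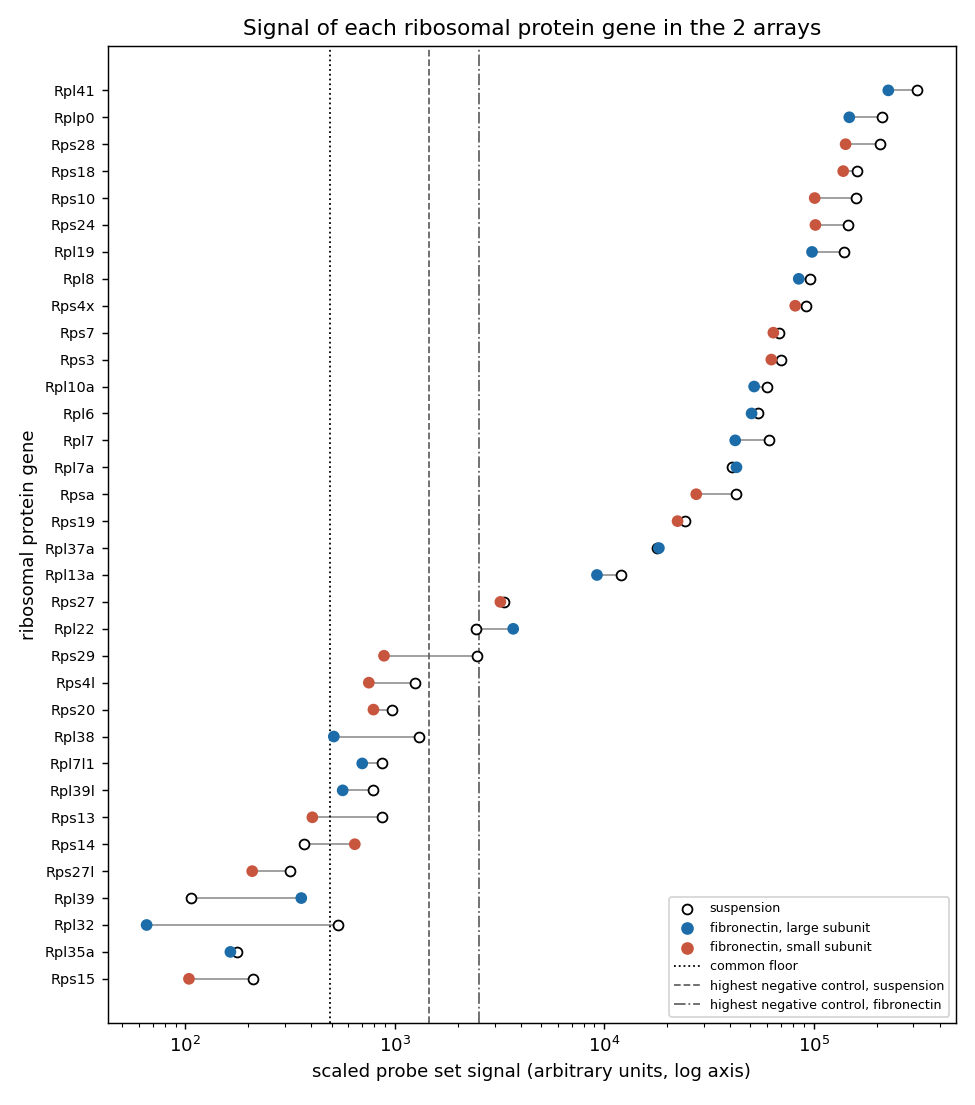
Scaled signal of each of the 34 ribosomal protein genes (log axis, arbitrary units) in suspension (open points) and on fibronectin (filled points, coloured by subunit), with the floor of 490 and the highest negative control of each array as vertical lines. In 18 of the 21 clearly detected genes the filled point lies to the left of the open one, and the dim genes at the bottom lie among the controls.

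Among the clearly detected genes, the ribosomal proteins were mostly lower on fibronectin in the setting used here, by small amounts. Several of these small differences turned above 0 under median scaling or quantile normalization, as listed further below. Of 21 genes, 18 had a ratio below 0, while over all 1744 clearly detected genes 38.0% did and 62.0% were above 0. Their median log2 ratio was -0.20, with single values from -0.65 to 0.59, against a median of 0.15 over all clearly detected genes. At least 1.5-fold lower were 2 of the 21, against 5.39% of all clearly detected genes, and 1 was at least 1.5-fold higher, against 21.0%. None was 2-fold lower or higher, against 0.631% and 4.76% of all clearly detected genes. The bar for clear detection was higher on fibronectin (2527) than in suspension (1452). Genes lower on fibronectin therefore passed it less readily, which raises the shares above 0 in this background. Of measured genes that were not clearly detected, 61.5% were below 0. Over all 30 measured members 26 were below 0, against 55.1% of 6385 measured genes (44.9% were above 0), with a median of -0.31 against -0.09. At least 1.5-fold lower were 6, against 22.6%, and 1 was at least 1.5-fold higher, against 15.9%. At least 2-fold lower were 2, against 9.27%, and 0 were 2-fold higher, against 5.79%. Over measured genes the counts past 1.5-fold and 2-fold lower were thus near or below the background, while the count below 0 was above it.

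The spread between probe sets of a gene gives a scale for the ratio of a single gene. Over 172 pairs of clearly detected probe sets of 1 gene, the SD of a single log2 ratio was 0.40, and over 1607 pairs of measured probe sets it was 0.70. Among the members themselves it was 0.14 over 2 pairs of clearly detected probe sets and 0.78 over 11 pairs of measured ones. This spread is between probe sets on the same 2 arrays and holds no variation between cultures.

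The subunits had nearly the same medians. The 11 clearly detected genes of the large subunit had a median log2 ratio of -0.20, with 8 below 0, and the 10 of the small subunit had -0.20, with 10 below 0. Over all measured members the medians were -0.32 in 15 genes of the large and -0.30 in 15 of the small subunit, a difference of -0.02. This difference changed sign with the floor and with the choice of probe sets. Of the 6 genes at least 1.5-fold lower, 5 belonged to the small subunit and 1, Rpl38, to the large, and 3 of the 5 and Rpl38 were not clearly detected.

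**Figure D2:**
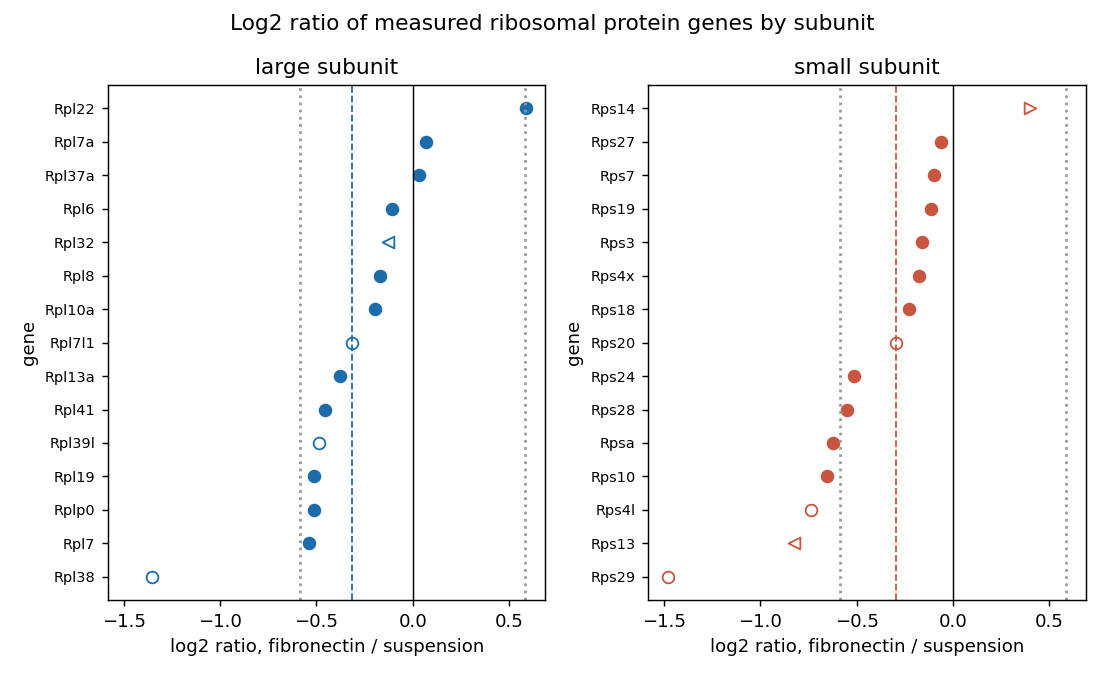
Log2 ratio, fibronectin over suspension, of the 15 measured genes of each subunit. Filled points are clearly detected genes, open points lie within the range of negative controls in at least 1 array, triangles are bounds, dashed lines are the medians (-0.32 and -0.30) and dotted lines mark 1.5-fold. The genes farthest below 0, Rps29 and Rpl38, are open points.

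In the large subunit the members with the highest signals were lower on fibronectin. Rpl41, a very short basic protein, had 311717 in suspension and 227400 on fibronectin, 1.37-fold lower. Rplp0, the scaffold of the acidic stalk that recruits translation factors, had 211691 and 148134, 1.43-fold lower. Both had the lower signal on fibronectin, like Rpl19 with 140488 and 98320, also 1.43-fold lower. The second probe set of Rpl19 had 671 in suspension and was below the floor on fibronectin, with both signals under the highest negative control of their array. Rpl7 had 61481 and 42268, 1.45-fold lower. The other one of Rpl7, with 1254 in suspension and below the floor on fibronectin, was at least 2.56-fold lower, with both signals under the highest negative control of their array. So both probe sets of Rpl19 and of Rpl7 gave the same sign, but the dim one of each lay within the range of controls. Of measured genes not clearly detected, 61.5% were below 0, so the matching sign carries little weight.

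Other large subunit members were closer to equal. Rpl8, which lies near the catalytic centre, had 95780 and 84980, a log2 ratio of -0.17. Rpl10a, the protein of the mobile L1 stalk, had 59713 and 52034 in its brighter probe set and 22870 and 22104 in the other, ratios of -0.20 and -0.05. Rpl6 had 54578 and 50600, a ratio of -0.11. These 3 were lower on fibronectin by less than the SD of 0.40 from clearly detected probe sets of all genes. Rpl8 and the brighter probe set of Rpl10a exceeded the members' own SD of 0.14, which rests on 2 pairs. Rpl13a, which also takes part in silencing of inflammatory messages outside the ribosome, had 12009 and 9247 (1.30-fold lower). Rpl7a with 40936 and 42853 and Rpl37a with 17873 and 18266 were the large subunit genes nearest to equality, with ratios of 0.07 and 0.03.

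Rpl22, an RNA-binding protein of the large subunit that is needed for T cell development but not for translation as such, was the clearly detected member with the highest ratio, and its probe sets disagreed. One had 2454 in suspension and 3683 on fibronectin, a log2 ratio of 0.59, just past 1.5-fold higher. The other had 2134 and 939, 2.27-fold lower, with the fibronectin signal under the highest negative control. The direction of Rpl22 was therefore not settled, and it turned to -0.30 when its probe sets were averaged.

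In the small subunit all 10 clearly detected genes were lower on fibronectin in the setting used here. Under median scaling Rps3, Rps4x, Rps7, Rps19 and Rps27 lay above 0. After quantile normalization Rps4x, Rps7 and Rps18 did. Rps10, which lies in the head of the subunit and is ubiquitylated when ribosomes collide, had 159103 and 101270, 1.57-fold lower. Rpsa, known both as a small subunit protein and as the precursor of a laminin receptor at the cell surface, had 42406 and 27544, 1.54-fold lower. These were the 2 clearly detected members past 1.5-fold lower. Both kept a ratio below 0 in the setting used here and after median, quantile, loess and spike scaling. Values ran from -1.13 to -0.19 for Rps10 and from -1.10 to -0.42 for Rpsa. Each has 1 bright probe set, so changes of floor, filter and probe set choice could hardly move its ratio and are no support.

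Rps28 was read by 3 probe sets. The brightest had 208478 and 142222, 1.47-fold lower, and the next had 204896 and 118328, 1.73-fold lower. The third had 912 and 1271, a ratio of 0.48, with both signals no higher than the highest controls. Thus its bright probe sets had 1 sign and the dim one the other.

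Rps24, a gene mutated in Diamond-Blackfan anaemia, had 145434 and 102076, 1.42-fold lower. This probe set and the bright one of Rpl7 are listed with the same GenBank accession in the annotation, under 2 different gene symbols, so which gene it reads is uncertain. The other probe set of Rps24 had 1502 in suspension and was below the floor on fibronectin, at least 3.07-fold lower. Without the probe set of the shared accession the median of the remaining 29 members was -0.30.

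The remaining bright small subunit genes were lower by less. Rps18, at the interface of the head with the large subunit, had 161960 and 138528, a ratio of -0.23. Its ratio was 0.29 after quantile normalization. Rps4x, encoded on the X chromosome, had 92287 and 81745, a ratio of -0.18. Its 4 other probe sets were dim, and the only measured one, with 692 on fibronectin, was at least 1.41-fold higher. Rps3, at the entry of the mRNA channel, had 70149 and 62866 (-0.16), and Rps7 had 68700 and 64287 (-0.10). Rps19, the gene most often mutated in Diamond-Blackfan anaemia, had 24296 and 22424 (-0.12). Rps27, a zinc-finger protein, had 3342 and 3198 (-0.06). In each of these 6 genes the difference was smaller than the SD of 0.40 from clearly detected probe sets of all genes. Those of Rps18, Rps4x and Rps3 were larger than the members' own SD of 0.14, which rests on 2 pairs.

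The members with the largest folds were dim. Rps29, a small zinc-binding protein, had 2479 in suspension and 890 on fibronectin, 2.79-fold lower. A further probe set for it, at 718 in suspension, gave at least 1.47-fold lower. Rpl38, known for its part in translating Hox messages, had 1310 and 513, 2.55-fold lower, while the other probe set for it was below the floor in both arrays. Rps13 was at least 1.77-fold lower, with 867 in suspension. On fibronectin all 3 lay below the highest negative control of that array. Rps20 had 973 and 792, a ratio of -0.30, also within the range of controls. Rpl32 had 536 in suspension and was at least 1.09-fold lower, and Rps14 had 646 on fibronectin and was at least 1.32-fold higher. Rpl35a, Rpl39 and Rps15 were below the floor in both arrays, so these arrays give no ratio for them.

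Related copies of ribosomal proteins, which can replace or resemble the standard protein in certain tissues, were dim throughout. Rpl39l, the copy of Rpl39 that is best known from the testis, had 791 and 565, a ratio of -0.49. Rpl7l1, related to Rpl7 and known from assembly of the large subunit, had 872 and 701, a ratio of -0.32. Rps27l, a p53 target related to Rps27, was below the floor in both arrays. Rps4l, related to Rps4x, was 1.67-fold lower in 1 probe set, with 1257 and 753, and at least 2.59-fold higher in the other, with 1266 on fibronectin. All 4 genes were under the highest negative control of each array, and the sign for Rps4l was not settled: its ratio became 0.27 under a floor at the 60th percentile, 0.32 as a mean of probe sets and 1.37 with plain probe sets. Rplp1, Rplp2, Rps6, Rps27a, Rpl3, Rpl5, Rpl10 and Rpl11 were not analysed here.

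The size of the ratio moved with the signal. Among members, those above 100000 in suspension numbered 7, and 6 of them had a log2 ratio of -0.4 or below. Of 12 clearly detected members between 10000 and 100000, 2 did. By the mean of both log2 signals, the 8 member probe sets above 100000 had a median ratio of -0.51 with 8 lower. The 4 other single-gene probe sets in that range had a median of -0.21 with 3 lower. Genes with a ribosomal protein name as symbol or as RefSeq synonym were left out of these others, among them the pseudogene Gm15772 (143190 and 106222, a ratio of -0.43), which RefSeq lists under Rpl26. Between 30000 and 100000 the 9 member probe sets had a median of -0.17 with 8 lower, and 48 others had 0.14 with 21 lower. Between 10000 and 30000 the 4 member probe sets had -0.08 with 3 lower, and 248 others had 0.20 with 90 lower. The median of the members thus lay below that of the others in these 3 ranges, and in the top range, where few others exist, both were mostly lower. Between 3000 and 10000 there were 2 member probe sets, 1 of them lower, with a median of 0.26 against 0.07 for 1264 others. The part of signal strength in the result was not tested beyond these values.

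**Figure D3:**
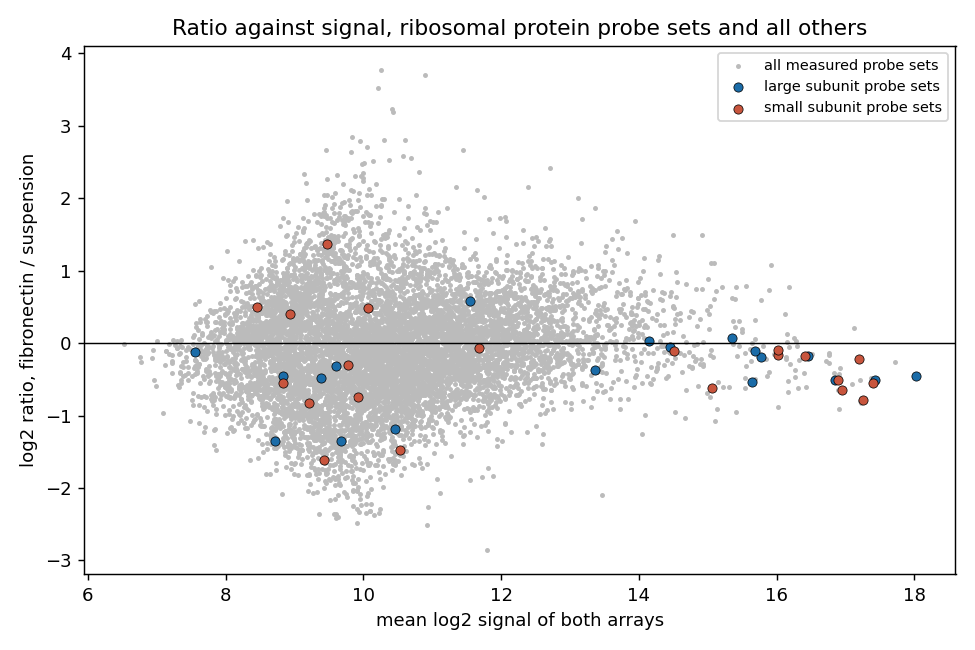
Log2 ratio, fibronectin over suspension, against the mean log2 signal of both arrays for all measured probe sets (grey) and for the 40 measured member probe sets (coloured by subunit). Above a mean log2 signal of about 14 most member probe sets lie below 0, and at low signal they are more widely scattered.

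The 4 other probe sets in the top range were Eef1a1, Tpt1, S100a6 and Bgn. Of these, Eef1a1 and Tpt1 belong to the TOP messages, like the members, so they are no unrelated comparison. Eef1a1, the elongation factor that brings aminoacyl-tRNA to the ribosome, had 236259 and 197918, a ratio of -0.26. Tpt1, an abundant TOP message that encodes a growth-related protein, had 139656 and 110021, a ratio of -0.34. S100a6, which encodes a calcium-binding protein, had 117734 and 105190, a ratio of -0.16. The small proteoglycan gene Bgn, with 132508 and 153758, was the 1 of the 4 that was higher on fibronectin.

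Values that describe RNA and labelling differed between the arrays as well. The signal ratio of 3′ to 5′ control probe sets was 1.79 in suspension and 1.19 on fibronectin for beta-actin, and 1.47 and 0.84 for Gapdh. All 9 hybridisation spikes, control transcripts added to the sample, were higher on fibronectin, with a median log2 ratio of 0.47. For 18S ribosomal RNA, the RNA of the small subunit, the 3 control probe sets had log2 ratios of -0.10 at the 3′ end, 0.83 in the middle and 0.34 at the 5′ end. Of 32 instrument settings filled in for both arrays, 4 differed (chip lot, operator, fluidics module and scan day), and these cannot be told apart from the group. The part of RNA quality in the lower ribosomal protein signals was not tested. The cell type labels were checked by marker genes: 11 of 15 fibroblast markers on the array were clearly detected, and Lum, Postn, Thy1 and Vim were not. The signals of all 15 summed to 207005 (suspension) and 312635 (fibronectin). Of adipocyte (5), endothelial (8), epithelial (9) and muscle (8) markers 0 were clearly detected, and of blood (9) and neural (8) markers 1 each, Cd14 and Tubb3. The endothelial gene Eng had 5167 in suspension, above the controls, and 2428 on fibronectin, just under the highest one. All 4 measured endothelial markers were lower (median -0.70), against 61.5% of all measured genes that were not clearly detected. Emcn, Pecam1 and Tek lay within the range of controls in suspension and below the floor on fibronectin, so their ratios are bounds near background. The part of these markers in the lower ribosomal protein signals was not tested.

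The medians of the members, over all that counted as measured, stayed below 0 under the 13 other processing settings, while their size moved. When arrays were scaled to the spikes, the median was -0.78, against -0.51 for all measured genes, and quantile normalization gave -0.085, against -0.02. Median scaling gave -0.10 for the members and 0.11 for all measured genes, and 18 of 30 members lay below 0 instead of 26. Of the clearly detected genes, Rpl6 (0.098), Rpl8 (0.034), Rpl10a (0.0085) and Rps3 (0.049) were then above 0 instead of below. So were Rps4x (0.032), Rps7 (0.11), Rps19 (0.091) and Rps27 (0.14). After quantile normalization Rps18 (0.29), Rpl8 (0.028), Rps4x (0.019) and Rps7 (0.020) were above 0 instead of below, and Rpl37a (-0.17) was below instead of above. A loess fit gave -0.27 with 27 of 29 below 0. Of the 30 measured members, 15 were below 0 in every one of these settings in which they were measured, 1 (Rps14, near background) was above 0 in every one, and 14 did not keep 1 sign. Clearly detected and below 0 throughout were Rplp0, Rpl7, Rpl13a, Rpl19, Rps10, Rps24 (with its uncertain probe set), Rps28 and Rpsa. Of these, Rplp0, Rpl13a, Rps10 and Rpsa have 1 probe set each, far above every floor. Only the scalings could move their ratios by more than a trace. After quantile normalization Rplp0 (-0.035), Rps28 (-0.041) and Rps24 (-0.051) were close to 0. Rpl19 (-0.17) and Rps10 (-0.19) were also much smaller in size there. Rpl7 (-0.53), Rpl13a (-0.58) and Rpsa (-0.72) were not. Rpl41 was at 0 after quantile normalization, where it held the top rank of both arrays, and below 0 in the other settings in which it was measured.

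**Figure D4:**
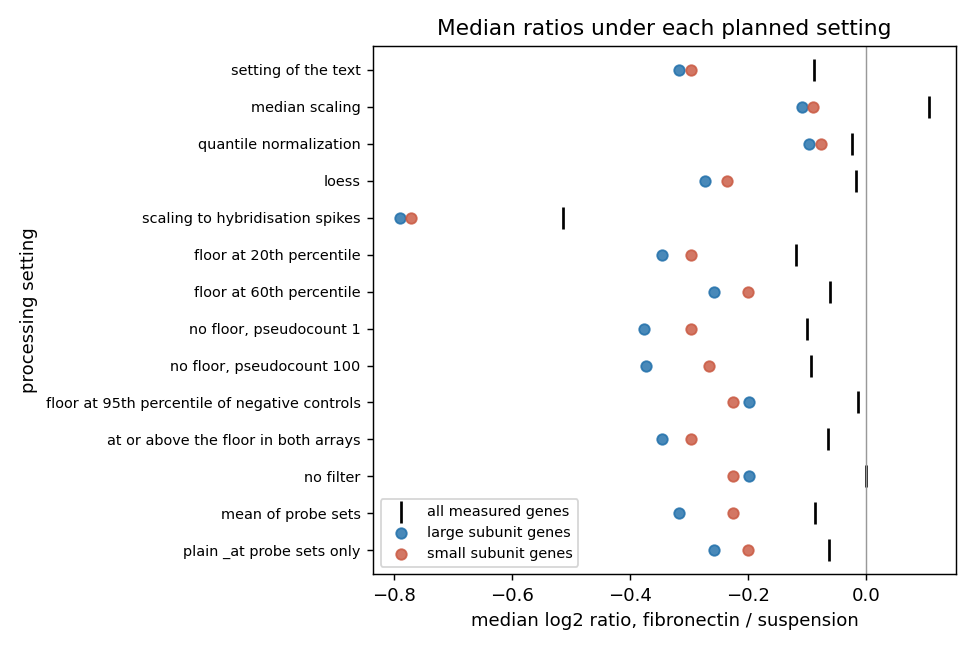
Median log2 ratio, fibronectin over suspension, of the measured large and small subunit genes (points) and of all measured genes (bars) under the setting used here and 13 alternatives. The medians of both subunits lie left of 0 and left of the bar of all genes in each setting.

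The start sites of the genes are shown because the TOP sequence, by which these messages are recognised, begins at the first transcribed base. RefSeq promoter windows (GRCm38.p6, 250 bases before to 50 after the annotated start) were matched by gene ID for 27 of the 34 genes, with 36 windows in all. The longest unbroken run of C or T that touched the 5 bases on either side of the start had a median of 4 bases in member windows and 3 in all 32851 windows. A run of at least 8 bases was found in 10 of 36 member windows (27.8%) and in 9.38% of all windows. Annotated starts can differ from the start used in these cells. A run counted here can lie before the annotated start, as the whole run of Rpl19 does, so it is not always a transcribed TOP tract. Below, 30 bases before and 15 after the start are printed 5′ to 3′, with the C and T run in capitals, for 4 genes with a long run and 4 with a short one, all with bright signals.
Rpl7a: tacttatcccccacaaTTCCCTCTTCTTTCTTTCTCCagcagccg
Rps10: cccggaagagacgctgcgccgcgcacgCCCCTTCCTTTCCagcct
Rps18: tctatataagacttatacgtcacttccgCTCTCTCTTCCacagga
Rpl19: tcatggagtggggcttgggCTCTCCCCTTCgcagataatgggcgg
Rpl41: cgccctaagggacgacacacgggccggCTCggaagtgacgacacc
Rplp0: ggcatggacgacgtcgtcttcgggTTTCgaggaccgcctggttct
Rps28: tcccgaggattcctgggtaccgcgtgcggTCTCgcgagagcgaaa
Rpsa: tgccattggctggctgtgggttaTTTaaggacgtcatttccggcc

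These windows lie at chr2:26910777-26910821 (Rpl7a, plus strand), chr17:27635230-27635274 (Rps10, minus), chr17:33955651-33955695 (Rps18, minus), chr11:98026894-98026938 (Rpl19, plus), chr10:128549154-128549198 (Rpl41, minus), chr5:115559437-115559481 (Rplp0, plus), chr17:33824548-33824592 (Rps28, minus) and chr9:120127736-120127780 (Rpsa, plus). The gene with the longest run, Rpl7a with 21 bases, had a ratio of 0.07, and Rps10 with 13 bases had -0.65. Among 17 genes with a window and a suspension signal above 10000, the 6 with a run of 8 or more had a median ratio of -0.44 (from -0.65 to 0.07), and the 11 others had -0.18 (from -0.62 to 0.03). Rps24, whose bright probe set may read another gene, is among the 6. The ranges of both sets overlap over most of their length. The word CCGGAAG, the core that ETS factors such as GABP bind, was found on either strand in 11 of 36 member windows (30.6%) against 8.86% of all windows. AAGATGGC, which matches the YY1 motif, was found in 7 (19.4%) against 2.75%. Both words hold the letters AAG, so that 1 stretch can match both, and a match is a description of the window only.

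Other genes of ribosome production, in lists chosen with results of these data known, were more evenly split in sign. Of 36 measured ribosome biogenesis factors, which assemble subunits in the nucleolus, 17 were below 0 and 19 above, 6 were at least 1.5-fold lower and 8 higher, and their median was 0.07 (0.28 under median scaling and -0.40 when scaled to the spikes). The factor with the largest ratio was Bop1, with 2180 in suspension and below the floor on fibronectin, at least 4.45-fold lower. Of those at or above the floor in both arrays, the 3 with the largest ratios were higher. The nucleolar GTPase Gnl3 had 555 and 1874, 3.37-fold higher, Tsr1 had 1377 and 3689, 2.68-fold higher, and Ftsj3 had 530 and 1183, 2.23-fold higher. In suspension all 3 were under the highest negative control, and Gnl3 and Ftsj3 were so on fibronectin too. Of 16 measured genes with TOP messages that are no ribosomal proteins, 10 had a ratio below 0 and 6 a ratio above it. Their median of -0.05 was 0.16 under median scaling, 0.07 after quantile normalization, -0.15 after loess and -0.53 when scaled to the spikes. Those with the largest ratios were the initiation factor Eif3f (2.19-fold lower, 2194 and 1002), the intermediate filament gene Vim (2.07-fold lower, 1421 and 686) and the histone chaperone Nap1l1 (1.84-fold higher, 1975 and 3632). Fibronectin signals of Eif3f and Vim lay within the range of the controls.

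Genes of mTOR, S6 kinase and Myc signalling, which set the rate of ribosome production, were 7 below 0 and 7 above among 14 measured, with a median of -0.06 (0.14 under median scaling and -0.54 when scaled to the spikes). The S6 kinase gene Rps6kb2 had 2249 and 865, 2.60-fold lower, the mTOR inhibitor Tsc1 had 2044 and 1159, 1.76-fold lower, and the kinase Akt1 had 4677 and 6919, 1.48-fold higher. The first 2 lay within the range of the controls on fibronectin. Of 54 measured proteins of the mitochondrial ribosome, 34 had a ratio below 0 and 20 a ratio above it (median -0.28), and 15 were at least 1.5-fold lower and 7 higher. Over all measured genes 55.1% were below 0, 22.6% at least 1.5-fold lower and 15.9% higher. Among measured genes not clearly detected, 61.5% were below 0 and 29.0% at least 1.5-fold lower. The counts of this list are near these shares. The median of this list was -0.06 under median scaling and -0.72 when scaled to the spikes. Its largest ratios were Mrps2 (2.90-fold lower), Mrpl17 (2.22-fold) and Mrpl48 (2.21-fold), all under the highest control on fibronectin. Only 8 of the 61 mitochondrial genes on the array were clearly detected. Fau, which encodes a small subunit protein fused to a ubiquitin-like one, had 559 in suspension and was at least 1.14-fold lower.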

How the data were processed

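The authors deposited a linear intensity for every probe set, from MAS5 per the submitters' processing notes (version and target not given in the sources used here). Precision is limited by the number of arrays, 1 per group. The members and gene lists were chosen with earlier results of these data known. Arrays were brought to a common 2% trimmed mean, taken over 12422 probe sets that are no controls (factors 0.999 and 1.00), floored and put on the log2 scale with Python 3.11.15, pandas 2.3.3, NumPy 2.4.6 and, for loess, statsmodels 0.14.6. A gene was read from its probe set with the highest mean log2 signal. Of all probe sets 10855 had 1 gene symbol, 396 several and 1237 none listed. No test was run. All members are accounted for; named with values were the brightest, highest and lowest members, related copies and fixed examples, and of each other list the 3 largest ratios measured in both arrays. Bop1, Eng, Gm15772, Eef1a1, Tpt1, S100a6, Bgn and Rps3a1 were named after their values were seen. The calculation was tested on simulated data. Promoter sequences are from RefSeq; protein sequences were not used here. Alternatives covered scaling, floor, filter and probe set choice.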

Additional observations from a re-analysis of the deposited data

How the results depend on the processing

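The medians of all members and of each subunit stayed below 0 under all 13 planned and 3 added alternatives; the added ones were chosen after seeing the data. No paired analysis was possible because each group has 1 array, and for the same reason no array could be left out. The median of all members was -0.10 under median scaling, -0.085 after quantile normalization and -0.78 with scaling to the spikes, where the large subunit had -0.79 and the small -0.77. The difference of large minus small subunit medians changed sign, to 0.027 with no filter and with a floor set from the negative controls (their 95th percentile), to 0.0016 over clearly detected genes and to 0.21 with the probe sets listed for further genes. The count at least 1.5-fold lower, 6, was 3 under median scaling, with the floor at the 60th percentile and with that at the controls, 2 over clearly detected genes, 22 with scaling to the spikes and, of 67 in place of 30, 18 with the further probe sets, where 55 were below 0. The count at least 1.5-fold higher, 1, was 0 after quantile normalization, loess, scaling to the spikes and with the mean of probe sets, 2 with a pseudocount of 1, with plain probe sets and with the further probe sets, and 3 with the floor at the 20th percentile. The ratio of Rpl22 was -0.30 as the mean of its probe sets, and that of Rps4l 0.27 with the floor at the 60th percentile, 0.32 as a mean and 1.37 with plain probe sets. Fewer members passed a higher floor (24 and 22); otherwise the cause was not tested. Signal over background limits the 13 members that were not clearly detected.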

Other observations

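Many ribosomal protein genes have processed pseudogenes, and 39 further probe sets are listed for a ribosomal protein gene together with other genes. They are given here without names, since each can read several genes. Of these, 37 were measured and 29 clearly detected. Among the 29, 24 were lower on fibronectin and 8 at least 1.5-fold lower, with a median log2 ratio of -0.33 and values from -0.91 to 0.35. Of all clearly detected genes, each read from 1 probe set, 38.0% were lower and 5.39% at least 1.5-fold lower. The 29 are probe sets and not genes, so the units differ. Over all 37 the median was -0.38, with 1 probe set at 2.67 from a suspension signal below the floor. Rps3a1, a small subunit gene whose symbol is outside the form used to choose members, had signals of 77808 in suspension and 66803 on fibronectin, a ratio of -0.22.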
